A study of Mus musculus with 6 samples.

Results

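The genes described here are 10 amino acid transporters of the exocrine pancreas, measured by bulk RNA sequencing of the whole pancreas of 1-day-old C57BL/6 mice. They were taken from a list of gene symbols: Slc7a2, Slc7a5, Slc7a8, Slc7a11, Slc3a2, Slc38a2, Slc38a5, Slc1a5, Slc43a1 and Slc6a9. All 10 were found among the 35527 genes of the mapped tables, and all 10 were among the 15805 genes with enough reads to be tested. Mice of the genotype miR216a-/-, called KO, gave 3 libraries, and wild-type (WT) mice of the same strain and age gave 3. Each library came from its own mouse donor, and the labels name no treatment. The labels state neither how the deletion was made nor in which tissues it acts. The sources used here give neither sex nor litter.

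Acinar cells make and secrete digestive enzymes at a rate that few other cells match, and they take up large amounts of amino acids from the blood to do so. Uptake is divided among carriers. Some exchange neutral amino acids, some carry cationic or branched ones, and others couple glutamine or glycine to sodium and so load the cell. Several of these genes are switched on by ATF4, the transcription factor that cells use when amino acids run short or when proteins misfold. miR-216a is a microRNA enriched in the pancreas, and the comparison asks how the carriers' mRNAs stand when it is missing.

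Both mature arms of miR-216a are shown because they define which 3′ untranslated regions can pair with the deleted microRNA. The sequences are RefSeq's on GRCm38.p6, on the plus strand of chromosome 11, with the 5p arm at chr11:28757018-28757039 and the 3p arm at chr11:28757058-28757079. Capitals mark the seed, bases 2 to 8.
miR-216a-5p: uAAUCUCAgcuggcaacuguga
miR-216a-3p: cACAGUGGucucugggauuaug

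The longest annotated 3′ untranslated region of each transporter was searched for matches to these seeds. A 7mer-m8 match pairs with the whole seed, and a 7mer-A1 match pairs with all but its last base and has an A opposite the first base of the microRNA. Slc7a2 and Slc7a11 each held 2 matches to the 5p arm and Slc3a2 held 1, while the other 7 transporters held 0. Among 15080 tested genes with an annotated region, 17% held a 5p match, and the median length searched was 1200 bases. The regions of Slc7a2 and Slc7a11 were long, at 5774 and 7364 bases, against 841 bases for Slc3a2. Capitals below mark the match, with a U written as T. Positions count from the base after the stop codon and name the base that pairs with base 7 of the microRNA. In a 7mer-A1 match the capitals start at that base, and in a 7mer-m8 match they start 1 base before it.
Slc7a2, position 3219, 7mer-m8: tttgcagTGAGATTgtcttgta
Slc7a2, position 4829, 7mer-A1: gacccataGAGATTAcctagga
Slc7a11, position 4101, 7mer-m8: atacattTGAGATTtcaatgga
Slc7a11, position 4257, 7mer-A1: atggcaagGAGATTAtagagaa
Slc3a2, position 155, 7mer-m8: tgcctcaTGAGATTgtgacttt

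For the 3p arm, Slc7a5 held 2 matches and Slc7a2, Slc38a2 and Slc7a11 held 1 each, where 26.1% of the tested genes held at least 1. Those of Slc7a5 and the 3p match of Slc7a2 are shown because these genes had, with Slc6a9, the largest fold changes in the fit to all 6 libraries. A match is a stretch of letters and does not show that the microRNA binds there.
Slc7a5, position 121, 7mer-m8: acacaatCCACTGTccctcaaa
Slc7a5, position 551, 7mer-m8: acctgttCCACTGTggacttgg
Slc7a2, position 2438, 7mer-m8: attgtgcCCACTGTgtgtgcag

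Library depth lay between 20565387 and 23028718 estimated reads, and acinar enzyme genes took 34.6 to 43.2% of them. Acinar identity was plain, with all 16 acinar markers detected and their summed level between 246350 and 311600 CPM (read counts scaled to library size by TMM) in KO and between 197320 and 284700 CPM in WT. Whole pancreas also holds islets, vessels and blood, so the cell type that gave a transporter's reads is not known. In such bulk RNA, fewer cells of a type and less RNA per cell cannot be told apart. The transcript tables held 0 transcripts of Mir216a, so the genotypes rest on the labels. KO 1 stood apart from the other 5 libraries in 2 Y-linked genes, with Ddx3y at 0.141 CPM against 61.8 to 102 CPM and Eif2s3y at 0 against 43.3 to 60.6 CPM. WT 1 stood apart in Alb, the liver's albumin gene, at 219 CPM against 6.41 to 15.1 CPM. The transporters' fold changes and summed values are therefore given with and without KO 1. Among the cell type markers, the beta cell list was lower in KO, with a summed level of 4386 to 4699 CPM in KO and 5583 to 6757 CPM in WT and 5 of 10 genes below WT without overlap. The endothelial list was higher, at 871.06 to 922 CPM in KO and 769 to 870.94 CPM in WT, with 9 of 10 genes higher in KO by their fitted fold change and 3 without overlap. Over all tested genes, 51.2% were higher in KO, 9.07% lay above WT without overlap and 10.3% below. Other lists, whose sums overlapped, also held such genes. Of 10 mesenchyme genes 2 lay above and 3 below, and of 10 alpha and other endocrine genes 3 lay below. The part of these cells in the transporter levels was not tested.

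Of the 10 transporters, 0 passed an adjusted p of 0.05 between KO and WT in edgeR's quasi-likelihood test, in which 0 of 15805 genes passed (0%). Slc7a2 came closest, Slc38a5 was the transporter with a lower KO mean, and the KO libraries were widely spread. The fitted log2 fold change was above 0 for 9 of 10 transporters, against 51.2% of all tested genes, and its median was 0.23, against 0.0069 over all tested genes. That median was 0.45 without KO 1, 0.08 without KO 2 and 0.14 without KO 3. Without adjustment, 2 of 10 transporters, Slc7a2 and Slc38a2, had an edgeR p under 0.05, both higher in KO, where 12.6% of all tested genes did, 5.62% higher and 7% lower. In those same genes the 3 KO libraries all exceeded the 3 WT libraries, a pattern shown by 9.07% of tested genes, and in 0 of 10 they all lay below, as in 10.3% of tested genes. DESeq2 called Slc7a2 alone, among 0.835% of tested genes called higher in KO, and limma-voom called 0 of 10, where it called 0.0127% of tested genes in either direction.

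**Figure D1:**
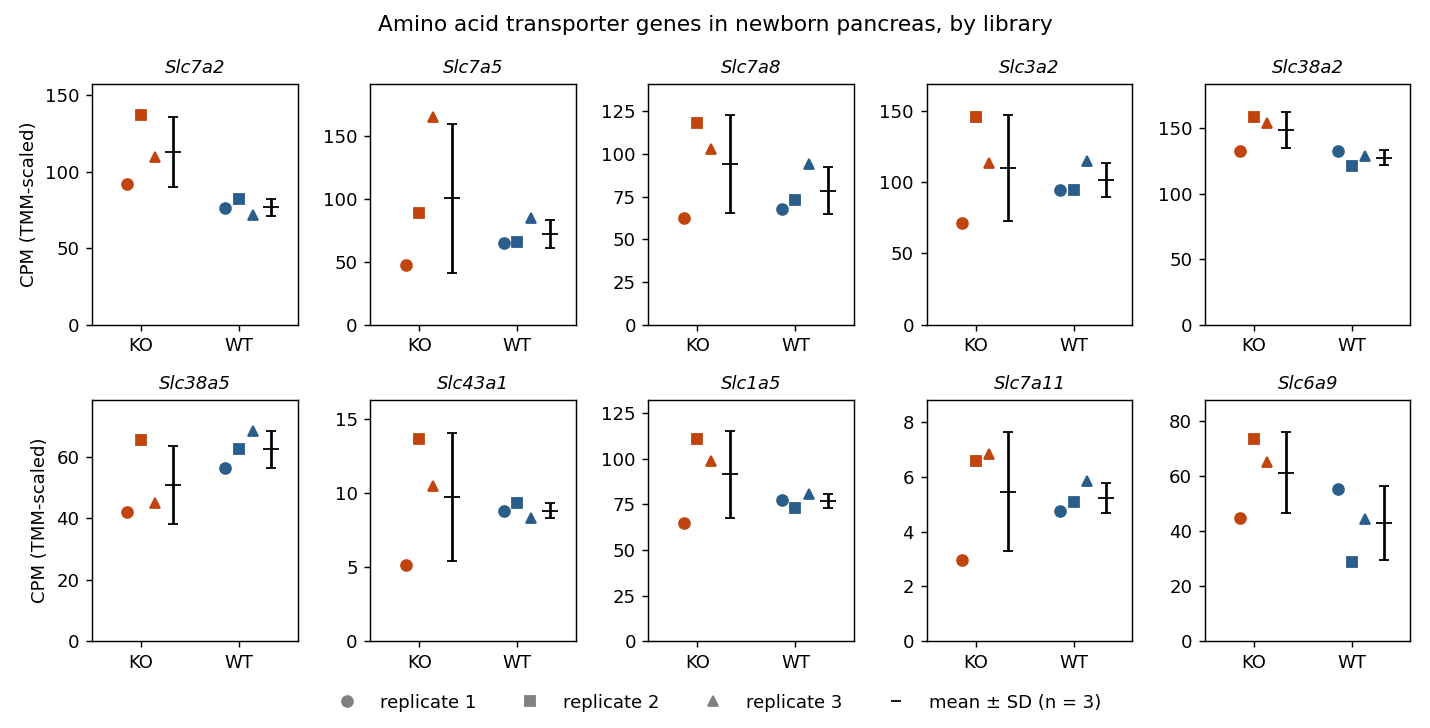
TMM-scaled CPM of the 10 transporter genes in each library, KO in orange and WT in blue, with the mean ± SD of 3 libraries in black and each vertical axis starting at 0. Slc7a2 and Slc38a2 are the genes whose KO libraries all lie above the WT libraries, and KO replicate 1 (circle) is the lowest KO library in every panel.

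Slc7a2 encodes the cationic amino acid transporter CAT-2, which carries arginine, lysine and ornithine. The gene lies on chromosome 8 at 40862396 to 40922308 on the plus strand (GRCm38). It stood at 92.2, 137 and 109 CPM in KO 1 to 3, against 76.2, 82.3 and 71.5 CPM in WT 1 to 3. The groups did not overlap, and KO 2 was the highest library. The fitted log2 fold change was 0.56 ± 0.15 (SE), or 1.47-fold, with an edgeR adjusted p of 0.227, so the gene was not called. The coefficient of variation was 20.2% in KO and 7.09% in WT. The call depended on the tool and on KO 1. DESeq2 gave the same fold change with an adjusted p of 0.0226, and edgeR without KO 1 gave 0.69 with an adjusted p of 0.0432, where 0.541% of tested genes were called higher in KO. Its fold change lay between 0.39 and 0.69 when each library was left out in turn. It was the largest of the 10 in the fit to all 6 libraries, but this rank was not stable. With effective length offsets, Slc7a5 (0.57) and Slc6a9 (0.55) exceeded Slc7a2 (0.53), as did Slc7a5 without KO 1, KO 2 or WT 3 and Slc6a9 without KO 1, WT 1 or WT 3.

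CAT-2 exists in 2 forms that differ by an alternative coding exon in the loop that sets substrate affinity. CAT-2A is the low-affinity form best known from liver, and CAT-2B is the high-affinity form best known from activated macrophages. The exons are shown because the data give a separate level for each form. On the plus strand of GRCm38, the CAT-2B exon lies at chr8:40908056-40908195 (140 bases) and the CAT-2A exon at chr8:40908398-40908534 (137 bases). Capitals mark the bases that differ between the exons or have no partner in the alignment.
CAT-2A: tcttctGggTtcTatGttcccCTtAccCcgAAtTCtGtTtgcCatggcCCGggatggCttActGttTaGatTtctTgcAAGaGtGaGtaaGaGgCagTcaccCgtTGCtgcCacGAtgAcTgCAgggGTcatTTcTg
CAT-2B: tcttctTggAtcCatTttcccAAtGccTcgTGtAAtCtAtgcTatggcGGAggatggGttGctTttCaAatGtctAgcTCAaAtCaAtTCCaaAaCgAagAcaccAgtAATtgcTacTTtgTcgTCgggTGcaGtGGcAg

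The exons shared 86 aligned bases and differed at 50, which is 61.4% identity over the longer exon, and they give proteins of 657 codons (CAT-2A) and 658 codons (CAT-2B). Both forms were present in every library, and both lay higher in every KO library than in every WT library. The CAT-2B transcripts stood at 6.53, 10.8 and 8.80 TPM (a level corrected for transcript length) in KO, against 5.13, 5.68 and 4.82 TPM in WT. The CAT-2A transcripts stood at 9.69, 10.2 and 10.8 TPM in KO, against 7.33, 9.26 and 6.13 TPM in WT. The ratio of means was 1.67 for CAT-2B and 1.35 for CAT-2A, each with an exact two-sided permutation p of 0.1, the smallest that 3 against 3 libraries can give. CAT-2B made up 44.7 ± 5.05% of Slc7a2 TPM in KO and 39.5 ± 2.35% in WT (SD, n = 3 each, exact permutation p = 0.2, two-sided), a difference within the spread of the libraries. The difference of 5.19 percentage points was 7.64 without KO 1 and 2.59 without KO 2. The macrophage and myeloid markers summed to 513, 536 and 410 CPM in KO and 531, 520 and 501 CPM in WT. Of these markers 8 of 10 were lower in KO by their fitted fold change, as were 7720 of 15805 tested genes. KO 2 had both the highest macrophage sum and the highest CAT-2B share, and the part of macrophages in the CAT-2B levels was not tested. The levels of the 2 forms are Salmon's division of reads that they share over most of their length.

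**Figure D2:**
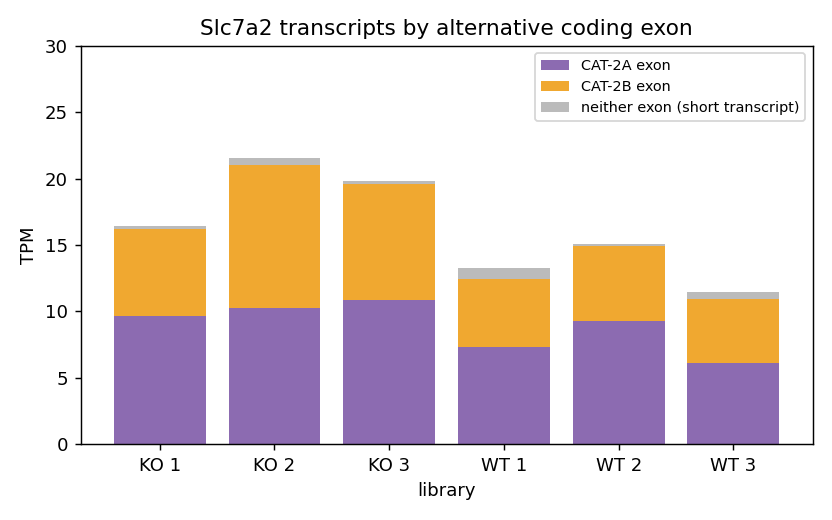
Slc7a2 level in TPM in each library, KO left and WT right, stacked by the alternative coding exon that the transcripts carry; the short transcript without either exon is in grey. CAT-2B takes 39.8 to 49.8% of the level in KO and 37.6 to 42.1% in WT.

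Slc3a2 encodes the CD98 heavy chain, the membrane partner that light chains need to reach the cell surface. Slc3a2 is on chromosome 19 at 8706882 to 8723369 on the minus strand. It stood at 71.1, 145 and 113 CPM in KO and 94.1, 94.6 and 115 CPM in WT. KO 1 lay below and KO 2 above every WT library, so the groups overlapped. The fitted log2 fold change was 0.12 ± 0.23 (SE, edgeR adjusted p = 0.881), and it was -0.14 without KO 2 and 0.35 without KO 1.

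Slc7a5 encodes LAT1, the light chain that exchanges intracellular glutamine for leucine and other large neutral amino acids. It lies on chromosome 8 at 121881150 to 121907694 on the minus strand. Its levels were 47.7, 88.7 and 165 CPM in KO and 65.3, 65.8 and 84.9 CPM in WT. The KO libraries spanned a 3.47-fold range, the widest of the 10 genes, against 1.30-fold in WT. The log2 fold change of 0.48 ± 0.38 (SE, edgeR adjusted p = 0.653) rested on KO 3, since without that library it was -0.08. Without KO 1 it was 0.82.

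Slc7a8 encodes LAT2, a light chain with a broader choice of neutral amino acids, small ones included. Slc7a8 is on chromosome 14 at 54722209 to 54781946 on the minus strand. It stood at 62.4, 118 and 103 CPM in KO and 68.0, 73.2 and 94.2 CPM in WT. KO 2 and KO 3 lay above every WT library and KO 1 below, with a log2 fold change of 0.27 ± 0.23 (SE, edgeR adjusted p = 0.683). It was 0.49 without KO 1, 0.07 without KO 2, 0.20 without KO 3 and 0.42 without WT 3.

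Slc7a11 encodes xCT, the light chain that brings in cystine in exchange for glutamate and so feeds glutathione synthesis. It lies on chromosome 3 at 49892526 to 50443614 on the minus strand. It was the scarcest of the transporters, with 63, 129 and 160 estimated reads in KO and 100, 127 and 123 in WT. In CPM these were 2.97, 6.56 and 6.84 in KO and 4.74, 5.09 and 5.84 in WT, with KO 1 lowest and both other KO libraries above WT. A log2 fold change of 0.06 ± 0.31 (SE, edgeR adjusted p = 0.959) was fitted. Its sign was negative with limma-voom and without KO 2, KO 3 or WT 1, and without KO 1 it was 0.36.

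The light chain genes among the 10 transporters, Slc7a5, Slc7a8 and Slc7a11, were set against their heavy chain, and light chain genes outside the 10 were not counted. Their summed TPM was 0.748, 0.674 and 1.14 times that of Slc3a2 in KO, against 0.674, 0.656 and 0.752 times in WT. KO 3 alone lay far from the rest. The means of 0.854 ± 0.250 in KO and 0.694 ± 0.051 in WT did not differ beyond their spread (SD, n = 3 each, exact permutation p = 0.4, two-sided). The difference of 0.16 was 0.21 without KO 1 and 0.017 without KO 3. Most of the excess in KO 3 was Slc7a5, at 0.746 times the Slc3a2 level, against 0.402 and 0.323 times in KO 1 and KO 2 and 0.331 to 0.392 times in WT (exact permutation p = 0.5, two-sided). The proliferation markers were also lowest in KO 3, with a summed level of 827, 547 and 319 CPM in KO and 1100, 1182 and 1354 CPM in WT. Of these markers, 15 of 15 lay lower in every KO library than in every WT library, against 10.3% of all tested genes. Their part in the transporter levels was not tested.

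Slc38a2 encodes SNAT2, the sodium-coupled carrier of alanine, serine and glutamine that cells raise when amino acids are scarce. Slc38a2 is on chromosome 15 at 96687392 to 96699730 on the minus strand. It stood at 133.1, 159 and 154 CPM in KO and 132.5, 121 and 129 CPM in WT. The groups did not overlap, though KO 1 and WT 1 were almost level, and with upper-quartile scaling they did overlap. In TPM the gap was wider, with 40.6, 41.9 and 46.4 TPM in KO and 37.7, 37.3 and 33.8 TPM in WT. The log2 fold change was 0.22 ± 0.10 (SE), or 1.16-fold, with an edgeR adjusted p of 0.395, and 0.29 without KO 1. Its KO libraries spread less than those of any other transporter, with a coefficient of variation of 9.25% in KO and 4.46% in WT.

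Slc38a5 encodes SNAT5, a carrier of glutamine, asparagine and histidine that is enriched in the pancreas and is also known from alpha cells that multiply when glucagon signalling is blocked. It lies on the X chromosome at 8271133 to 8280179 on the plus strand. It was the transporter with a lower KO mean, at 42.2, 65.4 and 45.2 CPM in KO and 56.3, 62.7 and 68.4 CPM in WT. KO 1 and KO 3 lay below every WT library and KO 2 among them. KO over WT, the log2 fold change was -0.30 ± 0.17 (SE, edgeR adjusted p = 0.522), with -0.52 without KO 2 and -0.18 without KO 1. Without KO 2 both KO libraries lay below WT, as did 15.8% of tested genes. That follows from leaving out the highest KO library, so it is not a separate result. The summed alpha and other endocrine markers were also highest in KO 2 within KO, at 2473, 3178 and 2183 CPM in KO and 2179, 3098 and 2575 CPM in WT, and their part was not tested.

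Slc1a5 encodes ASCT2, the main sodium-dependent exchanger of glutamine, alanine and serine. It lies on chromosome 7 at 16781340 to 16798274 on the plus strand. It stood at 64.8, 111 and 98.9 CPM in KO and 77.6, 73.1 and 80.7 CPM in WT. KO 2 and KO 3 lay above and KO 1 below every WT library, with a log2 fold change of 0.25 ± 0.18 (SE, edgeR adjusted p = 0.626) that was 0.44 without KO 1 (edgeR adjusted p = 0.0887) and 0.08 without KO 2 (edgeR adjusted p = 0.892). A transcript annotated as a retained intron held 47.4 to 53.8% of the gene's estimated reads, and coding transcripts held 36.0 to 42.2%. The gene's level is therefore not that of its coding mRNA alone.

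Slc43a1 encodes LAT3, a facilitated carrier of leucine and other branched amino acids. Slc43a1 is on chromosome 2 at 84838850 to 84863594 on the plus strand. It had 109, 269 and 245 estimated reads in KO and 185, 233 and 175 in WT, or 5.13, 13.7 and 10.5 CPM in KO and 8.77, 9.34 and 8.31 CPM in WT. KO 1 lay below and the other KO libraries above a narrow WT range. edgeR fitted a log2 fold change of 0.15 ± 0.31 (SE, adjusted p = 0.892), which was -0.17 without KO 2 and 0.45 without KO 1. The split of its reads among transcripts was unstable, since 1 coding transcript received 13.6, 148 and 0 estimated reads in KO and 48.6, 58.4 and 51.8 in WT.

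Slc6a9 encodes GLYT1, the sodium- and chloride-dependent glycine carrier, which red cell precursors also use to supply haem synthesis. It lies on chromosome 4 at 117834506 to 117875198 on the plus strand. It stood at 44.9, 73.4 and 65.2 CPM in KO and 55.3, 28.9 and 44.6 CPM in WT. KO 2 and KO 3 lay above every WT library and KO 1 inside the WT range. The log2 fold change of 0.51 ± 0.25 (SE) had an edgeR adjusted p of 0.463. It was 0.69 without KO 1, 0.36 without KO 2 and 0.29 without WT 2 (edgeR adjusted p = 0.806), the lowest library. It was the transporter whose coefficient of variation was larger in WT, at 24.0% in KO and 30.9% in WT. The erythroid markers, 9 of 10 of which were in the tables, summed to 1708, 4817 and 1797 CPM in KO and 5952, 2708 and 2842 CPM in WT. KO 2 and WT 1, the highest libraries of their groups for Slc6a9 in CPM, were also the richest in erythroid RNA. In TPM, Slc6a9 was slightly higher in KO 3 (27.5) than in KO 2 (27.2). Between the groups, the mean erythroid sum in KO was 0.723 times that in WT, while the Slc6a9 mean was higher in KO. The part of erythroid RNA in the Slc6a9 levels was not tested.

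**Figure D3:**
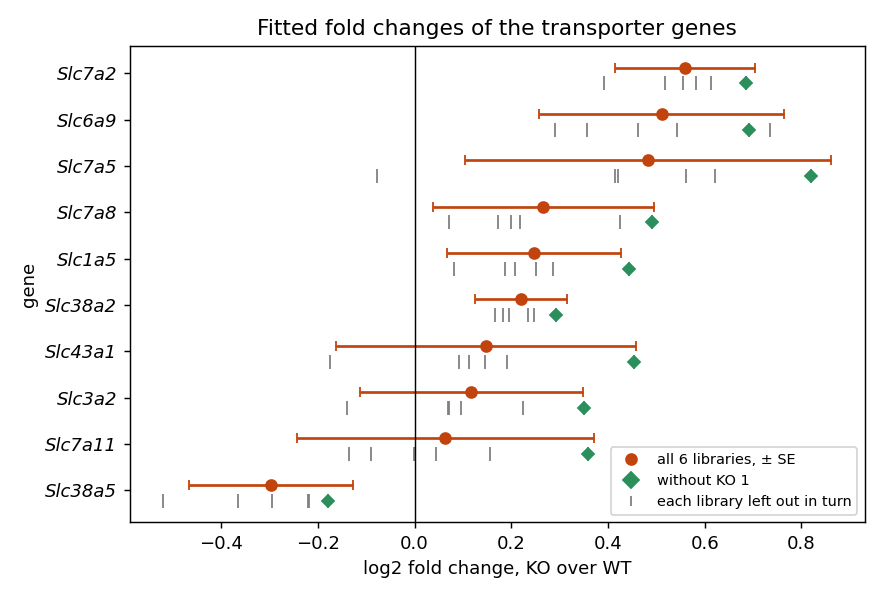
Fitted log2 fold change of KO over WT for each transporter, with its SE from all 6 libraries (orange), without KO 1 (green diamonds) and with each other library left out in turn (grey ticks). Slc7a2 stands at 0.56 and Slc38a5 at -0.30 with all 6 libraries, and the estimates without KO 1 lie to the right of the full fit for all 10 genes. That shift follows from KO 1 being the lowest KO library for each gene.

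The libraries of the KO group differed more from each other than those of WT. The coefficient of variation was larger in KO for 9 of 10 transporters, against 64.1% of all tested genes. KO 1 was the lowest KO library for 10 of 10 transporters, a pattern noticed in the values, against 31.2% of tested genes, and it was the lowest of all 6 libraries for 7 of 10, against 14.7%. KO 2 was the highest KO library for 8 of 10, against 30.5% of tested genes. The median transporter deviated from the WT mean by -0.42 in KO 1, 0.52 in KO 2 and 0.37 in KO 3 on the log2 scale, and by -0.06, -0.07 and 0.10 in WT 1 to 3, while the median over all tested genes lay between -0.0066 and -0.0012 in every library. Without KO 1, both remaining KO libraries lay above every WT library for 8 of 10 transporters, the exceptions being Slc3a2 and Slc38a5, where 15.5% of tested genes did so. That count follows in part from KO 1 being the lowest KO library for 10 of 10, so it is not a separate result. KO 1 also had the lowest summed acinar level of its group, at 246350, 311600 and 270250 CPM in KO 1 to 3 and 246420, 197320 and 284700 CPM in WT 1 to 3. KO 1 is also the library with the low Y-linked values, and the part of either in the transporter levels was not tested.

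**Figure D4:**
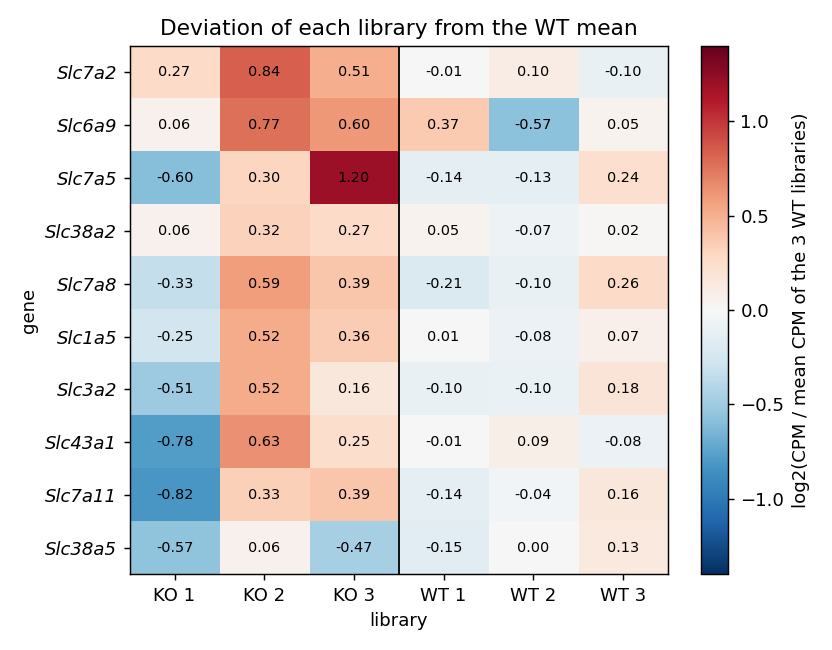
Deviation of each library from the WT mean, as log2 of CPM over the mean CPM of the 3 WT libraries, for the 10 transporters (rows) in KO 1 to 3 and WT 1 to 3 (columns); red is higher and blue lower. KO 1 lies below the WT mean for 7 of 10 genes and has a median of -0.42, and KO 2 lies above it throughout, with a median of 0.52.

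Corrected for length, the transporters kept a broadly similar order of level in all libraries. Slc3a2 was the most abundant at 84.7 ± 21.2 TPM in KO and 75.7 ± 5.10 TPM in WT (SD, n = 3 each), and it exceeded Slc1a5, at 64.6 ± 14.9 TPM in KO and 51.3 ± 1.68 TPM in WT, in 6 of 6 libraries. Slc38a5 followed at 35.8 ± 6.08 TPM in KO and 43.1 ± 4.35 TPM in WT, below Slc1a5 in 6 of 6 libraries. These levels and the sum below count every transcript of a gene. Coding transcripts held 36.0 to 42.2% of Slc1a5's estimated reads, so the rank of Slc1a5 is not that of its coding mRNA. Slc38a2, at 43.0 ± 3.04 TPM in KO and 36.3 ± 2.15 TPM in WT, was below Slc38a5 in 4 of 6 libraries, so these neighbours did not keep a fixed order, and it was above Slc7a5 in 5 of 6. Slc7a5 (41.7 ± 22.6 TPM in KO and 27.2 ± 2.18 TPM in WT) and Slc7a8 (29.6 ± 8.01 TPM in KO and 24.0 ± 2.55 TPM in WT) overlapped in both groups. Slc6a9 (24.5 ± 4.93 TPM in KO and 16.4 ± 4.69 TPM in WT) and Slc7a2 (19.3 ± 2.62 TPM in KO and 13.3 ± 1.83 TPM in WT) overlapped with each other and Slc6a9 with Slc7a8. Slc43a1, at 5.37 ± 1.92 TPM in KO and 4.28 ± 0.918 TPM in WT, and Slc7a11, at 1.33 ± 0.410 TPM in KO and 1.30 ± 0.170 TPM in WT, were the lowest in 6 of 6 libraries. Summed over the 10 genes, transporter RNA stood at 266, 381 and 403 TPM in KO and 287, 301 and 290 TPM in WT. The means were 350 ± 73.8 TPM in KO and 293 ± 7.39 TPM in WT (SD, n = 3 each, exact permutation p = 0.4, two-sided). The difference of 57.2 TPM was 99.3 TPM without KO 1 and 30.5 TPM without KO 3.

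A composite element bound by ATF4 with C/EBP partners, TGATGNAA, was searched on both strands of RefSeq promoter windows, from 250 bases before to 50 after each start. It occurred in 3.97% of 32851 such windows. Of the 10 transporters, 7 had a window, and Slc7a11 alone held the element, with 2 matches on opposite strands that begin 66 and 47 bases before the start. Its window is shown because Slc7a11 is the ATF4 target that feeds glutathione synthesis, at chr3:50443564-50443863 on the minus strand of GRCm38.p6, with the matches in capitals.
Slc7a11 promoter: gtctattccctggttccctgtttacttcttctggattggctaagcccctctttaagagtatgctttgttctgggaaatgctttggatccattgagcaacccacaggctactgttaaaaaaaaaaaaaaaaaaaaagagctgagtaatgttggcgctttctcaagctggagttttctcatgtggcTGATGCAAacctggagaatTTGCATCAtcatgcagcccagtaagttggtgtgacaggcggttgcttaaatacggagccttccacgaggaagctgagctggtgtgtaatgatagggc

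Genes of the ATF4 and amino acid response were also followed, and of 28 tested members of that list 0 were called by edgeR, with 16 higher and 12 lower in KO and a median log2 fold change of 0.10. Without adjustment 5 were higher (Nupr1, Chac1, Ddit4, Eif2ak4 and Vldlr) and 1 lower (Psat1) at an edgeR p under 0.05. Over all tested genes, 5.62% were higher and 7% lower at that threshold. For 3 of the 28, Nupr1, Eif2ak4 and Vldlr, every KO library lay above WT, against 9.07% of all tested genes. Eif2ak4 encodes GCN2, the kinase that senses uncharged tRNA. Nupr1 and Chac1 were named for the 2 smallest p-values of the list, and Eif2ak4, Vldlr, Ddit4 and Psat1 were likewise chosen after their values were seen. Nupr1, a stress-induced chromatin protein, stood at 402, 316 and 402 CPM in KO and 262, 137 and 261 CPM in WT, a log2 fold change of 0.76 ± 0.24 (SE, edgeR adjusted p = 0.266). DESeq2 called Nupr1 alone in the list, where it called 0.835% of tested genes higher in KO. Chac1, which degrades glutathione, stood at 3.67, 7.98 and 6.54 CPM in KO and 3.93, 1.64 and 2.52 CPM in WT (log2 fold change 1.17 ± 0.38 SE, edgeR adjusted p = 0.275). KO 1 lay inside the WT range for Chac1, and limma-voom called 0 genes of the list.

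Of the 42 other amino acid transporter genes, 32 had enough reads to be tested and 10 did not. edgeR called 0 of them, with 17 higher and 15 lower in KO and a median log2 fold change of 0.04, and DESeq2 and limma-voom called 0 as well. Without adjustment, 4 were higher and 1 lower at an edgeR p under 0.05, where 5.62% of all tested genes were higher and 7% lower. The smallest p belonged to Slc38a6, a member of the glutamine carrier family of Slc38a2, at 44.1, 57.9 and 50.7 CPM in KO and 38.7, 38.2 and 37.5 CPM in WT (log2 fold change 0.42 ± 0.11 SE, edgeR adjusted p = 0.238). Next was Slc6a6, the taurine transporter, at 148, 189 and 218 CPM in KO and 138, 136 and 124 CPM in WT (log2 fold change 0.48 ± 0.14 SE, edgeR adjusted p = 0.255). Without KO 1 edgeR called Slc6a6, where 0.541% of tested genes were called higher in KO. Every KO library lay above WT for Slc38a6 and Slc6a6, and for Slc38a9 and Slc38a7, which act at the lysosome and were chosen after their values were seen. Every KO library lay below WT for Slc38a1, Slc6a13 and Slc6a15, likewise chosen after their values were seen. Of these, Slc6a13 (0.385 to 1.66 CPM) and Slc6a15 (0.813 to 1.48 CPM) had few reads. Of the 32 tested genes, 4 thus lay above WT without overlap and 3 below, against 9.07% and 10.3% of all tested genes.

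By TPM, the most abundant genes of that list were Slc38a10, Slc38a3, Slc6a6, Slc38a4 and Slc38a6. Slc38a10 stood at 71.6 ± 3.13 TPM in KO and 81.7 ± 4.05 TPM in WT, and its log2 fold change in reads was -0.21 ± 0.10 (SE, edgeR adjusted p = 0.445). The glutamine carrier Slc38a3 stood at 68.3 ± 9.84 TPM in KO and 62.7 ± 11.6 TPM in WT, and Slc38a4 stood at 30.8 ± 1.69 TPM in KO and 29.8 ± 4.17 TPM in WT (SD, n = 3 each). The log2 fold change was 0.04 ± 0.18 (SE) for Slc38a3 and 0.04 ± 0.08 (SE) for Slc38a4.

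**Figure D5:**
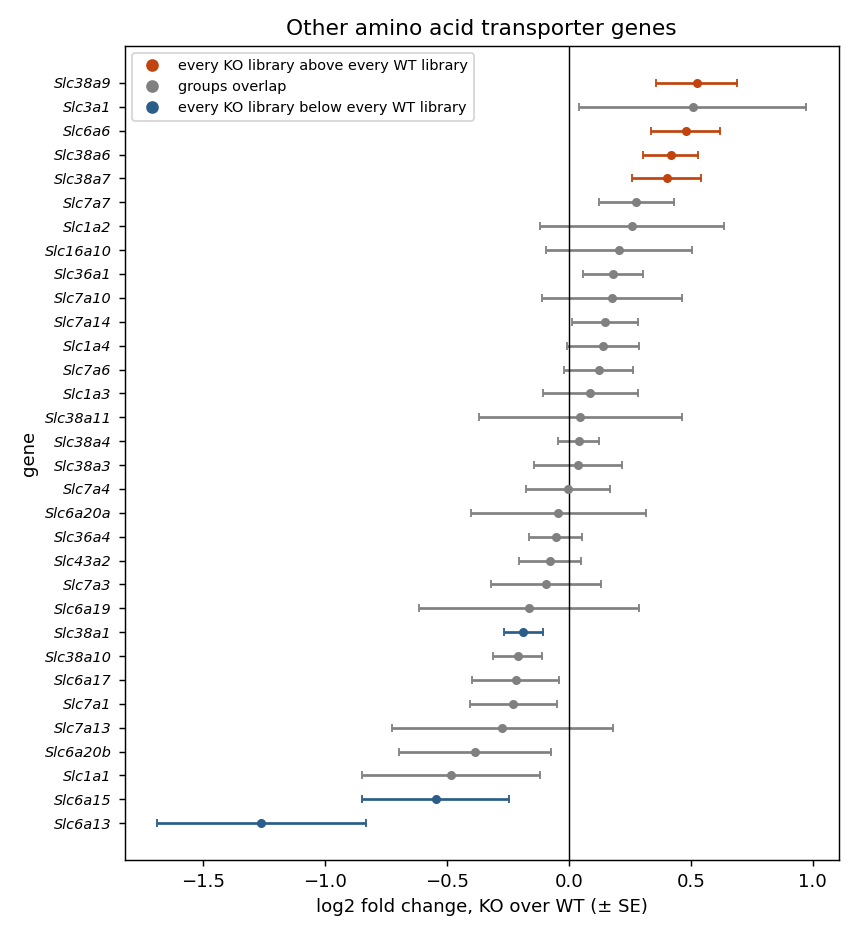
Fitted log2 fold change of KO over WT, with its SE, for the 32 tested genes among 42 other amino acid transporters; orange marks genes with every KO library above WT, blue those with every KO library below, and grey those that overlap. The points lie on both sides of 0 with a median of 0.04, and none was called by edgeR.

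Among 16 genes of glutathione and cystine use, 8 were higher and 8 lower in KO, with a median of 0.01. edgeR, DESeq2 and limma-voom called 0. At an unadjusted edgeR p under 0.05, 1 gene lay in each direction, where 5.62% of all tested genes were higher and 7% lower. Gsr, glutathione reductase, stood at 31.6, 40.7 and 33.4 CPM in KO and 47.3, 44.4 and 43.0 CPM in WT (log2 fold change -0.35 ± 0.12 SE, edgeR adjusted p = 0.275), with every KO library below WT. Ggt5, a glutamyltransferase that acts on glutathione conjugates, stood at 9.28, 14.7 and 10.6 CPM in KO and 8.91, 9.02 and 6.79 CPM in WT (0.48 ± 0.21 SE, edgeR adjusted p = 0.395).

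Of 11 mitochondrial amino acid carriers, 10 were tested, with 5 higher and 5 lower in KO and a median of 0.01. The 3 tools called 0. At an unadjusted edgeR p under 0.05, 1 gene was higher, where 5.62% of all tested genes were. That gene was Sfxn3, a serine carrier, at 36.8, 33.8 and 32.8 CPM in KO and 28.1, 30.1 and 26.4 CPM in WT (log2 fold change 0.29 ± 0.10 SE, edgeR adjusted p = 0.286). Slc25a13, the aspartate and glutamate carrier citrin, stood at 16.5, 15.3 and 15.4 CPM in KO and 17.7, 17.4 and 22.6 CPM in WT (-0.29 ± 0.13 SE, edgeR adjusted p = 0.432).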

How the data were processed

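RNA from whole pancreas was prepared as stranded mRNA libraries and, per the submitters' processing notes, handled with bcl2fastq, Salmon 0.13.1 and DESeq2 1.24.0 on mm10. The authors deposited Salmon's estimated counts and TPM per transcript. Per the file headers, effective lengths are given as well, and these entered 1 alternative. A gene table of the series holding a scaled signal was not used. Of 116248 transcripts, 115995 matched GENCODE M21 (GRCm38), and the rest held 0.0341 to 0.0458% of reads. Estimated counts were summed per gene and rounded, and TPM were summed per gene.

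edgeR 4.0.16 (R 4.3.3) was run with TMM, filterByExpr and the quasi-likelihood test, with Benjamini-Hochberg adjustment over 15805 genes and a threshold of 0.05. SEs are the fold change over the square root of F. The biological coefficient of variation was 18.4%. Alternatives were DESeq2 1.42.0, limma-voom 3.58.1, other scalings and filters, length offsets and leaving out each library. No 2 libraries agreed within sampling noise (chi-square per degree of freedom 22.4 to 86.0), so each counted as 1 sample.

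The 10 transporters and the other lists were chosen with earlier results of these data known. Besides the 10, each list's called genes or, with none called, its 2 smallest p-values are named, and the 5 most abundant other transporters by TPM. Replicate numbers follow sample order and pair nothing. Searches used RefSeq sequences for the promoters and microRNAs and GENCODE M21 transcripts for 3′ untranslated regions and exons.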

Additional observations from a re-analysis of the deposited data

How the results depend on the processing

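Across the 80 combinations of a transporter and a setting with all 6 libraries, 78 kept direction and side of the threshold. With DESeq2, Slc7a2 was called, so 1 transporter was higher, and 1 gene of the ATF4 list, where 0.835% of tested genes were called higher. Slc7a11 turned to -0.021 with limma-voom. With upper-quartile factors 1 transporter, rather than 2, lay above WT without overlap. DESeq2 and limma-voom give no other scaled level for that count.

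Leaving out each library in turn gave 0 to 1 transporter called higher, 0 to 1 other transporter called higher and a median log2 fold change of 0.08 to 0.45. It gave 2 to 8 transporters above WT without overlap and 0 to 1 below. The 8 came without KO 1, where 15.5% of tested genes lay above, and the 1 below came without KO 2, where 15.8% lay below. Both follow in part from leaving out the lowest or the highest KO library of those genes. The call of Slc7a2 and of Slc6a6 came without KO 1, where edgeR called 0.541% of tested genes higher in KO. The fold change ran from -0.14 to 0.35 for Slc3a2, from -0.17 to 0.45 for Slc43a1, from -0.078 to 0.82 for Slc7a5 and from -0.14 to 0.36 for Slc7a11 (-0.09 without KO 2, -0.14 without KO 3 and -0.0013 without WT 1). It ran from 0.08 to 0.44 for Slc1a5, from 0.29 to 0.73 for Slc6a9, from 0.07 to 0.49 for Slc7a8, from 0.39 to 0.69 for Slc7a2, from 0.17 to 0.29 for Slc38a2 and from -0.52 to -0.18 for Slc38a5. The cause was not tested. In estimated reads the summed level (exact permutation p = 0.4), the light to heavy chain ratio (0.6) and the CAT-2B share (0.5) again did not separate the groups. The scarcest transporter, Slc7a11, had 63 to 160 reads in KO and 100 to 127 in WT. No paired analysis was possible because the replicate numbers follow sample order only.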
